A study of Homo sapiens with 5 samples.

Results

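Chromosome 3 was followed through 3 matrices of Hi-C contacts from HL60, a human promyelocytic leukaemia cell line. Its members were chosen by chromosome name and are all 396 bins of 500 kb that carry it, of 6203 bins in all and 6083 on the autosomes and chromosome X (build hg19). Of these, 390 held enough contacts to be analysed, and the other 6 lie together at the centromere, where the bins were divided at 91.5 Mb into a short arm (3p) and a long arm (3q). The chromosome was selected on earlier results of these data, namely its compartment scores and the joined segments at the end of 3q, so the levels of those measures are given as a description.

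The study treated HL60 cells with retinoic acid (ATRA, 1 library) or phorbol ester (TPA, 2 libraries), and left others untreated (2 libraries). ATRA drives these cells toward granulocytes and TPA toward macrophages. Doses and times of treatment are not given in the labels. The submitters merged the libraries of a condition, so each condition is 1 matrix, differences have no replicate check, and all 95% intervals cover counting error only. A library and its treatment cannot be told apart. Contact maps hold no expression values, so the identity of the cells was not checked against marker genes.

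Hi-C ligates DNA ends that are neighbours in the nucleus and reads which positions were ligated to each other. Chromosomes fold into an open, gene-rich A compartment and a closed, gene-poor B compartment, and regions of one kind contact each other preferentially, both within a chromosome and across chromosomes. Contact also falls with distance along the DNA. A block of contacts between separate chromosomes that is strongest at a corner and fades away from it is the usual pattern of a chromosomal fusion, where distant sequences come to lie on one DNA molecule. In RefSeq's gene order on GRCh38.p14, the end of 3q carries BCL6, a transcriptional repressor of germinal centre B cells, followed by LPP, TP63, IL1RAP, FGF12 and HES1, and then by TFRC, the transferrin receptor, and PAK2, a kinase. GATA2, a regulator of blood stem cells, and MECOM, a transcription factor rearranged in myeloid leukaemia, lie closer to the centromere. None of these genes was placed in a bin here, because that annotation and the matrices use different builds.

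Chromosome 3 held 185252 contacts within itself in ATRA cells, 228876 in TPA cells and 245388 in untreated cells. Contacts with other chromosomes numbered 815262 in ATRA, 797363 in TPA and 776734 in untreated cells. The share within the chromosome was 18.5% in ATRA cells (95% interval 18.4 to 18.6%), 22.3% in TPA cells (22.2 to 22.4%) and 24.0% in untreated cells (23.9 to 24.1%). The intervals do not overlap, and ATRA was lower than untreated by a difference of -5.49 percentage points (-5.60 to -5.38) and TPA by -1.71 (-1.82 to -1.59). The ordering was that of the whole matrices, where all contacts within chromosomes made up 31.5% in ATRA cells, 36.3% in TPA cells and 39.0% in untreated cells. A contact between chromosomes counts in full for each chromosome it joins but only once in a whole matrix. The levels therefore cannot be compared, only the ordering. Among 23 chromosomes, chromosome 3 ranked 13 from the lowest share in ATRA, 14 in TPA and 13 in untreated cells.

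Contacts at short range were fewer in both treatments. Contacts between different bins of chromosome 3 were used here, without those inside a bin. Those under 2 Mb made up 25.5% in ATRA cells, 24.6% in TPA cells and 33.5% in untreated cells. The differences from untreated were -7.99 percentage points in ATRA (-8.29 to -7.68) and -8.92 in TPA (-9.21 to -8.64). This fall was not particular to chromosome 3. Over the whole matrices untreated cells had a share of 36.0% under 2 Mb, TPA cells 27.6% and ATRA cells 28.2%. Per total contacts of each matrix, neighbouring bins at 0.5 to 1 Mb held 0.633 times the untreated contacts in ATRA cells and 0.693 times in TPA cells. At 2 to 5 Mb it was 0.815 in ATRA cells and 0.991 in TPA cells. Both treatments thus held less contact than untreated cells at the shortest distances. The ratio at 5 to 10 Mb was 0.980 in ATRA cells and 1.22 in TPA cells, and at 20 to 50 Mb 1.04 in ATRA cells and 1.19 in TPA cells, so TPA cells held more contact than untreated cells from 5 to 50 Mb while ATRA cells differed from them by at most 5 percent at these distances. At short range the arms moved alike. At 0.5 to 1 Mb in ATRA cells the ratio was 0.617 on the short arm (0.601 to 0.634) and 0.644 on the long arm (0.630 to 0.658). From 50 to 100 Mb in TPA cells it was 1.14 on the short arm (1.09 to 1.18) and 0.966 on the long arm (0.936 to 0.997), which is the largest gap between the arms among the distances compared.

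The coverage of a bin is its total contacts, given here relative to the median bin of the same matrix, and it follows DNA copy number together with how well a region is cut, ligated and mapped. Chromosome 3 divided into 8 coverage segments. The stretch from 23 to 75.5 Mb was lowest, with a median of 0.574 in ATRA cells, 0.562 in TPA cells and 0.578 in untreated cells over 105 bins. A short stretch from 8.5 to 17 Mb on the same arm had the highest median, at 1.39 in ATRA, 1.44 in TPA and 1.50 in untreated cells (17 bins). These levels differed more than 2-fold between segments of one arm, and by much less between the matrices within a segment. The bins from 0 to 8.5 Mb stood at 0.941 in ATRA cells, 0.922 in TPA cells and 0.887 in untreated cells, and those from 17 to 23 Mb at 0.983 in ATRA, 0.921 in TPA and 0.882 in untreated cells.

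Around and beyond the centromere, from 75.5 to 118.5 Mb, the median was 0.841 in ATRA cells, 0.824 in TPA cells and 0.789 in untreated cells. From 118.5 to 143.5 Mb it stood at 1.20 in ATRA, 1.20 in TPA and 1.24 in untreated cells, and from 143.5 to 183 Mb at 0.931 in ATRA, 0.904 in TPA and 0.869 in untreated cells. The last segment, from 183 Mb to the end, stood at 1.17 in ATRA cells, 1.16 in TPA cells and 1.22 in untreated cells. The long arm as a whole had a median of 1.01 in ATRA, 0.982 in TPA and 0.986 in untreated cells, and the short arm 0.668 in ATRA, 0.679 in TPA and 0.681 in untreated cells. The end of 3q from 182 Mb on was covered 1.31 times as highly as the rest of the chromosome in ATRA cells, 1.33 times in TPA cells and 1.47 times in untreated cells. Whether the segments are changes of copy number was not tested.

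**Figure D1:**
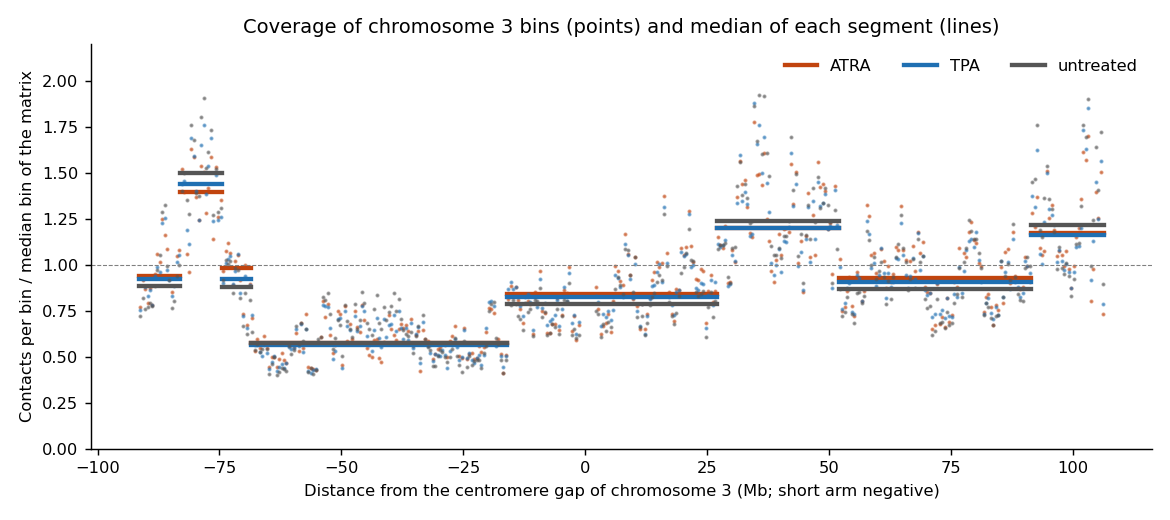
Coverage of the 390 analysed bins of chromosome 3 (points) and segment medians (lines) in ATRA, TPA and untreated cells. The y axis is relative to the median bin of each matrix. The x axis is the distance in Mb from the centromere gap, negative on the short arm. The 3 lines run together. The segment median is lowest between 23 and 75.5 Mb and highest between 8.5 and 17 Mb, while the highest single bin lies on the long arm, at 126 Mb in ATRA and TPA cells and at 127 Mb in untreated cells.

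Compartments were scored in 2 ways. The cis score is the first eigenvector of the correlation matrix of contacts within chromosome 3 after balancing and division by the mean at each distance, in standard deviations (SD) over the chromosome, and positive values were assigned to A by contact with chromosome 19. The trans score is the leading pattern of contacts with all other chromosomes and uses contacts within chromosome 3 only through balancing. By the trans score on the summed matrices, runs of at least 6 bins of one sign formed 4 A domains of 25 Mb in all and 16 B domains of 113 Mb in all. The longest B domain, from 152 to 169.5 Mb, spanned 17.5 Mb. A further measure is the contact with the gene-rich chromosomes 17, 19, 20 and 22, divided by the expectation from coverage. It shares contacts with the trans score. With the cis score it shares them only through balancing, which used all contacts of a bin, and through the sign.

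The strongest A domain of the short arm ran from 44.5 to 53.5 Mb. Its mean trans score was 2.34 in ATRA cells, 1.95 in TPA cells and 2.74 in untreated cells. Its cis score was 1.80 in ATRA, 1.71 in TPA and 1.64 in untreated cells, so the scores ordered the matrices differently. Its contact with the gene-rich chromosomes was 1.24 times expected in ATRA cells (1.19 to 1.29), 1.20 times in TPA cells (1.15 to 1.24) and 1.39 times in untreated cells (1.35 to 1.44). Both treated intervals lay below the untreated one. Its coverage was also lower, at 0.594 in ATRA cells, 0.656 in TPA cells and 0.747 in untreated cells.

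The A domain from 126 to 132.5 Mb on the long arm had a trans score of 0.901 in ATRA cells, 0.886 in TPA cells and 1.44 in untreated cells. Its gene-rich contact was 1.03 times expected in ATRA, 1.06 times in TPA and 1.15 times in untreated cells, and again the untreated interval (1.11 to 1.18) lay above that of ATRA (0.999 to 1.07) and TPA (1.02 to 1.09). The other 2 A domains lie in the end of 3q. From 182.5 to 187 Mb the trans score was 1.20 in ATRA cells, 1.21 in TPA cells and 0.998 in untreated cells, with a cis score of 1.45 in ATRA, 1.34 in TPA and 1.51 in untreated cells. Its gene-rich contact was nevertheless under expectation, at 0.922 times in ATRA, 0.947 times in TPA and 0.851 times in untreated cells. This domain was therefore A by both scores and below expectation by direct contact.

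The last domain, from 193 to 198 Mb, had a mean trans score of 2.95 in ATRA cells, 2.71 in TPA cells and 2.36 in untreated cells, the highest of the 4 A domains in both treatments and behind that of the short arm in untreated cells. Its gene-rich contact was 1.20 times expected in ATRA cells, 1.17 times in TPA cells and 1.21 times in untreated cells. Its cis score stayed near 0, at 0.282 in ATRA, 0.468 in TPA and 0.106 in untreated cells. The domain thus scored as A by its contacts with other chromosomes and near neutral by those within chromosome 3. All bin pairs of chromosome 3 with chromosomes 1 and 14 were also placed at their expectation in the trans score, while their contacts stayed in balancing and coverage. The trans score of the domain was then still 2.67 in ATRA cells, 2.47 in TPA cells and 2.10 in untreated cells.

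Over the whole chromosome the cis and trans scores correlated at r = 0.713 in ATRA cells, 0.836 in TPA cells and 0.712 in untreated cells across 390 bins that share libraries and coverage. Ranked from the lowest of 23 chromosomes, these stood at 6 in ATRA, 5 in TPA and 8 in untreated cells. The short arm had r of 0.809 in ATRA, 0.918 in TPA and 0.797 in untreated cells, and the long arm 0.617 in ATRA, 0.759 in TPA and 0.630 in untreated cells. In the 32 bins from 182 Mb to the end, r was 0.377 in ATRA cells, 0.480 in TPA cells and 0.189 in untreated cells. The correlation was thus weakest at the end of 3q in each matrix. With that end left out of the eigenvector, r over the remaining bins was 0.784 in ATRA, 0.903 in TPA and 0.774 in untreated cells. Without balancing the matrices, r over the whole chromosome was only 0.146 in ATRA, 0.149 in TPA and 0.416 in untreated cells.

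On the long arm alone the order of the eigenvectors also mattered. Its first eigenvector correlated with the trans score at an absolute r of 0.443 in ATRA cells, 0.764 in TPA cells and 0.425 in untreated cells. Its second eigenvector did so at 0.762 in ATRA, 0.178 in TPA and 0.839 in untreated cells. It held 9.19% of the variance in ATRA, 8.79% in TPA and 10.7% in untreated cells, and the second 5.75% in ATRA, 7.32% in TPA and 7.54% in untreated cells. In ATRA and untreated cells the second pattern of the long arm was therefore the one nearer to the compartments seen from other chromosomes, and in TPA cells the first was. In the eigenvector over the whole chromosome the scores had the same sign in 83.1% of bins in ATRA cells, 90.8% in TPA cells and 81.5% in untreated cells. By the cis score 42.8% of bins were A in ATRA cells, 41.0% in TPA cells and 46.2% in untreated cells. By the trans score the shares were 32.1% in ATRA, 32.8% in TPA and 32.3% in untreated cells.

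**Figure D2:**
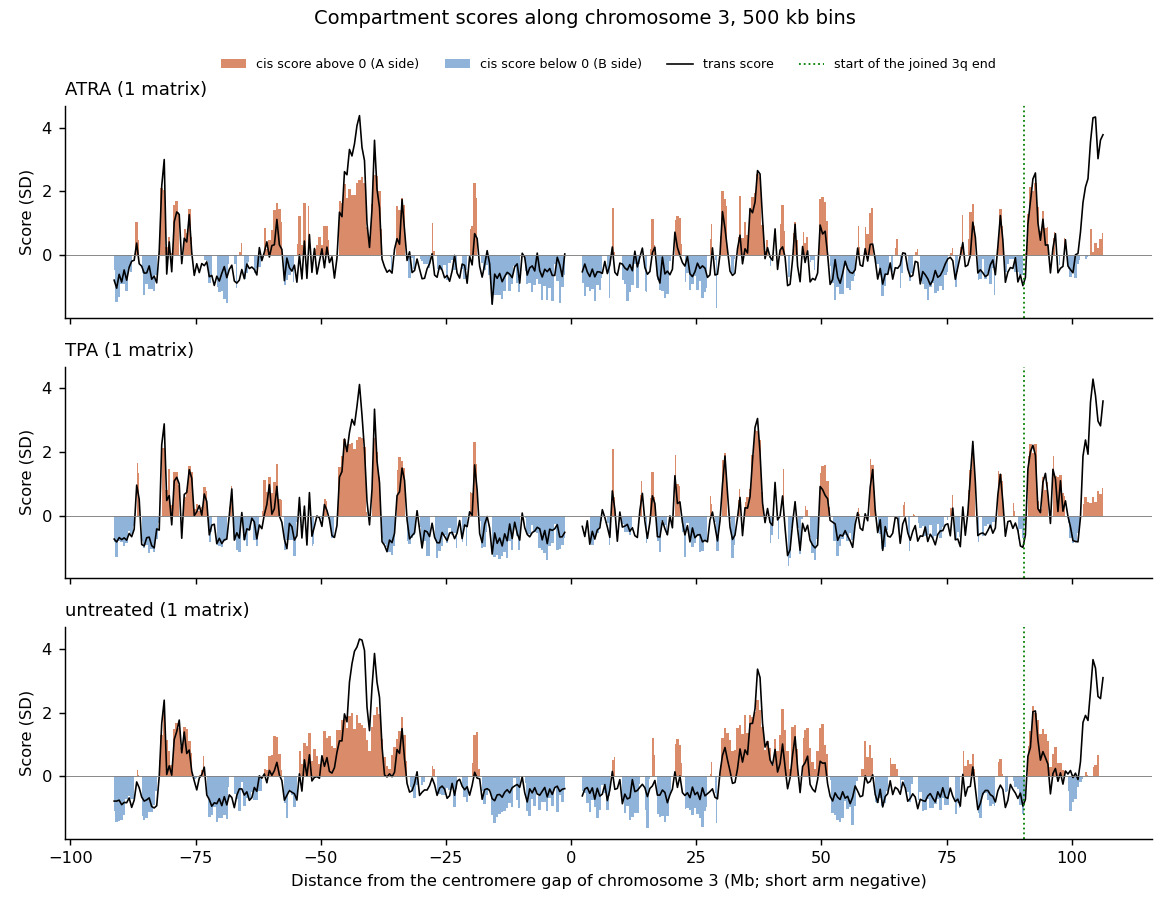
Cis and trans compartment scores in SD (y axes) of chromosome 3 for ATRA, TPA and untreated cells, with positive values for A. The x axis is the distance in Mb from the centromere gap, negative on the short arm. The trans score peaks from 44.5 to 53.5 Mb and from 193 to 198 Mb, and in the second region the cis score stays near 0.

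Against the untreated matrix, the cis score of chromosome 3 gave r = 0.880 for ATRA and 0.729 for TPA. Both ranked 4 from the lowest of 23 chromosomes, whose median was 0.917 in ATRA and 0.846 in TPA. The trans score correlated at 0.913 in ATRA and 0.844 in TPA, and both ranked 8. More bins moved in TPA than in ATRA by either score. The cis score changed by over 1 SD in 15 bins in ATRA and 65 in TPA, and the trans score in 8 bins in ATRA and 33 in TPA.

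A bin was called as switching where its score lay beyond 0.5 SD on opposite sides in treated and untreated cells. By the cis score, 2 bins of chromosome 3 switched from A to B in ATRA cells (0.513% of 390, against 0.48% of the 5630 bins of all chromosomes) and 0 from B to A (0.107% of all bins). In TPA cells 18 bins switched from A to B (4.62%, against 1.56% of all bins) and 3 from B to A (0.769%, against 0.337%). The share in ATRA was near that of all chromosomes. Without balancing, 7 bins switched to B and 3 to A in ATRA. In TPA 13 then switched to B and 20 to A, so the larger number was to A. The chromosome was selected on these scores, so nothing is read from the higher shares in TPA.

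The trans score called fewer bins. It called 0 in ATRA in either direction, where 0.124% of all bins switched to B and 0.0355% to A. In TPA it called 2 to B, at 13.5 and 53.5 Mb, and 1 to A, at 23.5 Mb (0.213% of all bins in each direction). The cis call and the trans call nevertheless moved the same way. All 18 bins that switched to B by the cis score in TPA had a lower trans score in TPA than in untreated cells, with a median change of -0.826, and 10 of them crossed 0. All 3 that switched to A had a higher trans score, with a median change of 0.747.

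Of the 18 bins, 9 lie from 118.5 to 143.5 Mb on the long arm, 9 on the short arm and 0 in the end of 3q. With an eigenvector for each arm alone, the numbers in TPA were 18 to B and 7 to A, and how many bins they share with the calls above was not counted. The order of the long arm's eigenvectors differed between TPA and untreated cells as given above, and its part in the calls was not tested. The fall was largest at 134.5 Mb, where the cis score was -0.682 in ATRA cells, -1.58 in TPA cells and 0.790 in untreated cells. The bin at 123.5 Mb had -0.575 in ATRA, -1.34 in TPA and 0.774 in untreated cells. These are the 2 bins that also switched in ATRA, and in both the ATRA score lay between those of TPA and untreated cells. The bin at 125.5 Mb had 0.531 in ATRA cells, -0.756 in TPA cells and 1.31 in untreated cells. The bin at 55.5 Mb had -0.479 in ATRA, -1.23 in TPA and 0.666 in untreated cells, and the bin at 13.5 Mb had -0.304 in ATRA, -0.986 in TPA and 0.905 in untreated cells. In each of these the ATRA score again lay between the others. The 3 bins that switched to A in TPA lie at 152 Mb, with -0.137 in ATRA cells, 0.768 in TPA cells and -0.811 in untreated cells, at 98 Mb, with 0.0493 in ATRA, 1.01 in TPA and -0.547 in untreated cells, and at 18.5 Mb, with -0.184 in ATRA, 0.784 in TPA and -0.618 in untreated cells.

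Runs of adjacent switching bins were short. In TPA cells 4 runs of 2 bins switched to B, from 43.5 to 44.5, 53.5 to 54.5, 55.5 to 56.5 and 123.5 to 124.5 Mb. The first 2 border the strong A domain of the short arm, on its opposite sides. From 53.5 to 54.5 Mb the gene-rich contact was 0.846 times expected in ATRA cells, 0.819 times in TPA cells and 1.07 times in untreated cells, and TPA over untreated was 0.764 (0.638 to 0.913). From 123.5 to 124.5 Mb it was 0.883 times in ATRA, 0.827 times in TPA and 0.829 times in untreated cells, and TPA over untreated was 0.998 (0.879 to 1.13). From 43.5 to 44.5 Mb it was 0.897 times in ATRA, 0.818 times in TPA and 0.961 times in untreated cells, and TPA over untreated was 0.851 (0.711 to 1.02). From 55.5 to 56.5 Mb it was 1.01 times in ATRA, 0.842 times in TPA and 1.02 times in untreated cells. There TPA over untreated was 0.823 (0.684 to 0.988). The interval thus lay below 1 in the runs at 53.5 and 55.5 Mb and took in 1 in those at 43.5 and 123.5 Mb.

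Bins near the limit of the rule lay close to 0.5 SD on one of their sides. The bin just inside in TPA, at 98 Mb, had cis scores of 1.01 in TPA and -0.547 in untreated cells, and the bin just outside, at 58.5 Mb, had -0.816 in TPA and 0.488 in untreated cells. In ATRA the bin just inside, at 123.5 Mb, had -0.575 in ATRA and 0.774 in untreated cells, and the bin just outside, at 55.5 Mb, had -0.479 in ATRA and 0.666 in untreated cells.

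**Figure D3:**
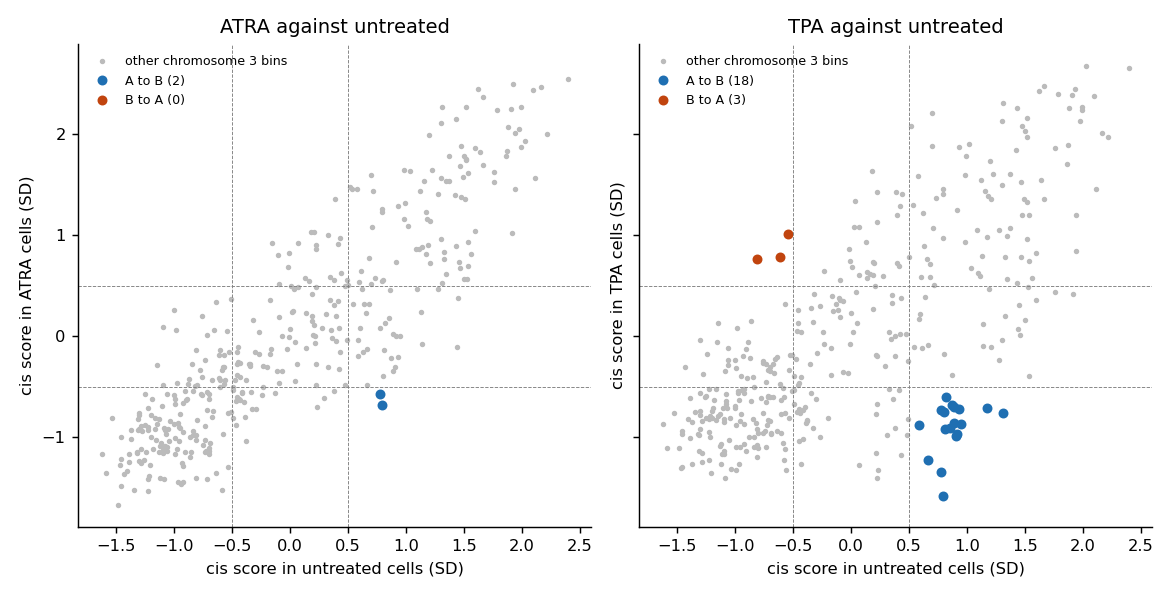
Cis score (SD) of each bin of chromosome 3 in treated cells (y axes) against that in untreated cells (x axes). Panels show ATRA and TPA, and switching bins are marked. Dashed lines lie at 0.5 SD on the A side and on the B side of each axis. In TPA 18 bins switched to B and 3 to A, and in ATRA 2 switched to B.

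Contact with the gene-rich chromosomes is counted between chromosomes, while the cis score is taken from contacts within chromosome 3. The measures are not fully separate, because balancing used all contacts of a bin and contact with chromosome 19 set the sign. Over all bins of chromosome 3 it was 0.957 times expected in ATRA cells, 0.957 times in TPA cells and 0.908 times in untreated cells, which makes both treatments 1.05 times untreated. In the 18 bins that switched to B by the cis score it was 0.854 times in TPA cells and 0.962 times in untreated cells, a ratio of 0.888 (0.847 to 0.931). The 9 of these bins on the short arm had a ratio of 0.852 (0.787 to 0.922) and the 9 on the long arm 0.909 (0.856 to 0.964). In the 3 bins that switched to A it was 0.995 times in TPA cells and 0.761 times in untreated cells, a ratio of 1.31 (1.16 to 1.47). Both sets thus moved in the direction of their call and away from the chromosome as a whole. They were picked by cis scores of these same matrices, so this is a description.

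In windows of 6 Mb, gene-rich contact moved in both directions. The window from 48 to 54 Mb had 1.22 times expected in ATRA cells, 1.20 times in TPA cells and 1.50 times in untreated cells. Relative to untreated, ATRA stood at 0.813 (0.764 to 0.866) and TPA at 0.800 (0.754 to 0.849), the lowest of the chromosome's windows in both. The window from 126 to 132 Mb, which covers most of the A domain of the long arm, had ratios of 0.894 in ATRA and 0.909 in TPA. The highest ratio was 1.21 in ATRA, at 66 to 72 Mb, and 1.21 in TPA, at 108 to 114 Mb, and both windows lie mostly in B domains. The windows from 156 to 168 Mb, inside the longest B domain, had ratios of 1.11 and 1.17 in ATRA cells and 1.11 in TPA cells for each.

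Contacts within the chromosome were compared between blocks of 5 Mb with at least 50 contacts, relative to the mean at their distance. In ATRA cells 11 of 577 block pairs were raised 1.5-fold or more (1.91%, against 2.03% of block pairs on all chromosomes) and 11 were lowered as much (1.91%, against 1.08%). In TPA cells 30 of 595 were raised (5.04%, against 4.25%) and 27 lowered (4.54%, against 2.63%). Shares of raised pairs were near those of all chromosomes, and shares of lowered pairs were higher in both treatments. Among the pairs picked after their values were seen, the block from 50 to 55 Mb, which takes in the end of the strong A domain, was raised with the block at 20 Mb 1.96-fold in ATRA and 2.02-fold in TPA. With the block at 80 Mb it was raised 1.80-fold in ATRA and 2.25-fold in TPA, and with the block at 75 Mb 1.55-fold in ATRA and 2.29-fold in TPA.

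A pair of bins from separate chromosomes was called joined if it summed to 20 contacts or more over the 3 matrices and reached 10 times the number expected from coverage. Chromosome 3 took part in 137 such pairs, of 789 in the genome (0.00507% of all bin pairs between chromosomes). Pairs that touch formed 20 segments, of which 10 join chromosome 1 and 10 join chromosome 14, with 108 and 29 bin pairs. The 137 pairs involve 33 bins of chromosome 3, and 29 of these lie between 182 Mb and the end and hold 131 of the pairs. Of the segments, 12 are single bin pairs and 3 hold 5 or more. As a whole, chromosome 3 contacted chromosome 14 at 1.62 times the coverage expectation in ATRA cells, 1.78 times in TPA cells and 1.78 times in untreated cells, and chromosome 1 at 1.19 times in ATRA, 1.22 times in TPA and 1.23 times in untreated cells.

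The main segment, of 90 bin pairs, joined the stretch from 183 to 195 Mb to that from 1 to 9 Mb of chromosome 1. It held 902 contacts in ATRA cells (16.0 times expected), 1181 in TPA cells (17.3 times) and 1466 in untreated cells (21.2 times). The next joined 189 to 192 Mb with 23.5 to 26.5 Mb of chromosome 14 through 15 bin pairs, with 184 contacts in ATRA cells (19.5 times), 240 in TPA cells (24.3 times) and 271 in untreated cells (27.8 times). A smaller one joined 195 to 197 Mb with 8.5 to 10 Mb of chromosome 1 through 6 bin pairs, with 36 contacts in ATRA cells (12.8 times), 49 in TPA cells (12.1 times) and 62 in untreated cells (14.2 times). The main 2 segments were seen in each matrix at more than 15 times expectation, highest in untreated cells.

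Of the smaller segments, 193.5 to 194.5 Mb with 24.5 to 25 Mb of chromosome 14 held 21 contacts in ATRA cells, 31 in TPA cells and 60 in untreated cells. A segment from 195 to 196 Mb with 23.5 to 25 Mb of chromosome 14 held 20 in ATRA, 19 in TPA and 38 in untreated cells, and one from 186.5 to 187.5 Mb with 25 to 26 Mb of chromosome 14 held 19 in ATRA, 30 in TPA and 24 in untreated cells. Outside the end of 3q, 128.5 to 129.5 Mb met 1 to 2.5 Mb of chromosome 1 with 19 contacts in ATRA cells, 31 in TPA cells and 35 in untreated cells. The segment from 188.5 to 189.5 Mb with 2 to 2.5 Mb of chromosome 1 held 9 in ATRA, 19 in TPA and 17 in untreated cells. These counts are low. At the limit of the rule, a bin pair just inside the limit (36 contacts at 10.2 times) and one just outside (20 contacts at 9.94 times) differed little.

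Within the rectangle around each segment, the point that best divides contacts into rectangles of high and low contact lay at 192 Mb of chromosome 3 and 5 Mb of chromosome 1, and at 190 Mb of chromosome 3 and 25 Mb of chromosome 14. The points were found on the sum of these same matrices so as to divide high from low contact, so the contrast at them is a description. For chromosome 14 the untreated matrix alone placed the partner's point at 25.5 Mb. These rectangles were compared over 5 Mb on each side. Chromosome 3 proximal of 192 Mb, toward the centromere, met chromosome 1 below 5 Mb at 10.2 times expected in ATRA cells, 12.1 times in TPA cells and 14.7 times in untreated cells. Chromosome 3 distal of 192 Mb met chromosome 1 above 5 Mb at 10.1 times in ATRA, 10.4 times in TPA and 12.5 times in untreated cells. The rectangles on the other diagonal were much lower, at 1.22 times in ATRA, 1.89 times in TPA and 1.82 times in untreated cells for proximal with above, where the intervals of TPA (1.56 to 2.27) and untreated cells (1.49 to 2.19) lie above 1, and 0.929 times in ATRA, 1.33 times in TPA and 1.04 times in untreated cells for distal with below. Contact was thus high in diagonally opposite rectangles in each matrix. No junction is read at this resolution, and whether the ends are fused was not tested.

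At chromosome 14 the diagonal was the opposite one and the contrast lower. Chromosome 3 distal of 190 Mb met chromosome 14 below 25 Mb at 7.25 times expected in ATRA cells, 8.15 times in TPA cells and 8.45 times in untreated cells. Chromosome 3 proximal of 190 Mb met chromosome 14 above 25 Mb at 5.33 times in ATRA, 6.70 times in TPA and 4.99 times in untreated cells. The remaining rectangles stood at 0.820 times in ATRA, 0.756 times in TPA and 0.646 times in untreated cells for proximal with below and at 1.62 times in ATRA, 2.03 times in TPA and 2.34 times in untreated cells for distal with above. At these chosen points the contrast between rectangles was present in each matrix at both partners.

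The change at the corner with chromosome 1 was abrupt along chromosome 3. With chromosome 1 below 5 Mb, the last 1 Mb before 192 Mb held 124 contacts in ATRA cells, 164 in TPA cells and 202 in untreated cells, at 15.6 times expected in ATRA, 16.5 times in TPA and 20.5 times in untreated cells. The first 1 Mb beyond it held 11 contacts in ATRA, 14 in TPA and 6 in untreated cells, at 1.04 times in ATRA, 1.10 times in TPA and 0.460 times in untreated cells. With chromosome 1 above 5 Mb the same steps ran the other way, at 2.83 times in ATRA, 3.51 times in TPA and 4.64 times in untreated cells before 192 Mb and 16.6 times in ATRA, 19.6 times in TPA and 22.4 times in untreated cells beyond it. The step was at least 4-fold in each matrix on both sides of chromosome 1. With chromosome 14 below 25 Mb, contact rose across 190 Mb from at most 0.849 times to at least 11.9 times in each matrix. Chromosome 14 above 25 Mb was met at 6.64 times in ATRA, 6.61 times in TPA and 9.90 times in untreated cells before 190 Mb. The first 1 Mb beyond it stood at 5.23 times in ATRA, 7.73 times in TPA and 7.70 times in untreated cells. The main fall came in the next 1 Mb, to 1.31 times in ATRA, 1.08 times in TPA and 2.01 times in untreated cells. The 2 Mb from 190 to 192 Mb met chromosome 1 below 5 Mb at 12.2 times expected in ATRA cells, 13.4 times in TPA cells and 17.5 times in untreated cells, and chromosome 14 below 25 Mb at 9.51 times in ATRA, 12.2 times in TPA and 10.9 times in untreated cells.

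**Figure D4:**
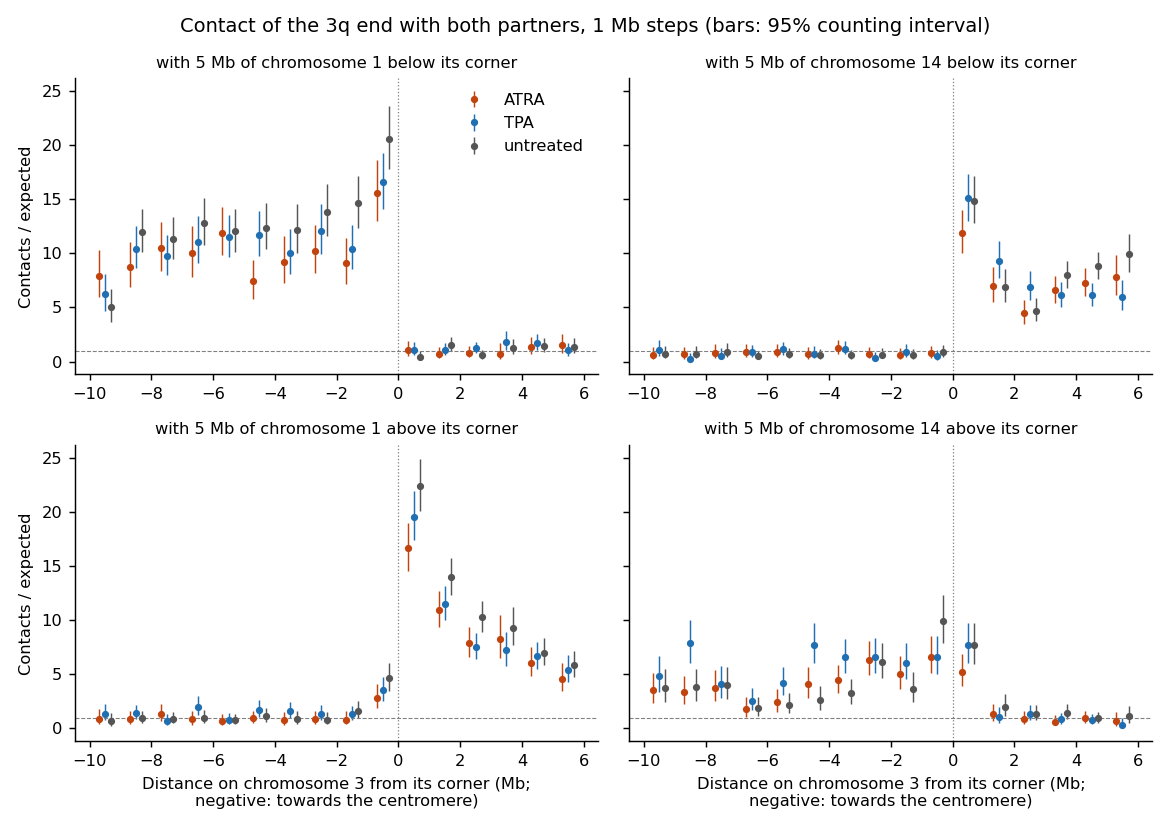
Contacts of the end of chromosome 3 with chromosomes 1 and 14 over the coverage expectation (y axis), in ATRA, TPA and untreated cells. The x axis runs in steps of 1 Mb along chromosome 3 from each corner, and panels show the partner below and above its corner. With chromosome 1 below its corner contact is 15.6 times in ATRA, 16.5 times in TPA and 20.5 times in untreated cells just before 0 and 1.04 times in ATRA, 1.10 times in TPA and 0.460 times in untreated cells just after it, and with chromosome 1 above its corner it rises. With chromosome 14 above its corner, the main fall comes after the first 1 Mb beyond 0.

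Raised contact reached far beyond the corner with chromosome 1. Chromosome 3 beyond 192 Mb met chromosome 1 from 5 to 10 Mb at 9.25 times expected in ATRA cells, 9.66 times in TPA cells and 11.4 times in untreated cells. From 10 to 20 Mb this was 5.03 times in ATRA, 4.57 times in TPA and 4.39 times in untreated cells, and from 50 to 60 Mb 2.60 times in ATRA, 2.64 times in TPA and 3.07 times in untreated cells. Far from the corner, from 150 to 160 Mb, it was 1.91 times in ATRA, 2.10 times in TPA and 2.06 times in untreated cells. From 170 to 180 Mb it was 0.992 times in ATRA, 1.21 times in TPA and 1.22 times in untreated cells. How far the reach of the corner differs from such levels was not tested. On the other side, chromosome 1 below 5 Mb met chromosome 3 from 180 to 190 Mb at 8.53 times in ATRA, 9.52 times in TPA and 10.3 times in untreated cells, and from 170 to 180 Mb at 4.64 times in ATRA, 5.77 times in TPA and 4.59 times in untreated cells. It still met chromosome 3 from 120 to 130 Mb at 4.56 times in ATRA, 3.53 times in TPA and 3.88 times in untreated cells, and from 100 to 110 Mb at 1.77 times in ATRA, 2.29 times in TPA and 1.83 times in untreated cells. Over the 9 windows of the short arm up to 90 Mb it ranged from 0.714 to 1.79 times in ATRA, 0.728 to 2.01 times in TPA and 0.665 to 1.69 times in untreated cells, with the highest value from 10 to 20 Mb in each. Contact with the tip of chromosome 1 was thus highest next to the corner and lower but raised along much of the long arm. The first 20 Mb of chromosome 1 above the corner met chromosome 3 from 180 to 190 Mb, before the corner, at 1.01 times in ATRA, 1.18 times in TPA and 1.09 times in untreated cells.

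At the corner with chromosome 14 the reach was followed along both chromosomes. Chromosome 14 above 25 Mb met chromosome 3 from 180 to 190 Mb at 2.95 times expected in ATRA, 3.14 times in TPA and 3.23 times in untreated cells. From 150 to 160 Mb this was 1.89 times in ATRA, 2.07 times in TPA and 2.18 times in untreated cells, and from 0 to 10 Mb, on the short arm, 1.32 times in ATRA, 1.52 times in TPA and 1.43 times in untreated cells. Chromosome 3 beyond 190 Mb met chromosome 14 from 20 to 30 Mb at 4.21 times in ATRA, 4.61 times in TPA and 5.32 times in untreated cells, and from 30 to 40 Mb at 1.06 times in ATRA, 1.06 times in TPA and 0.945 times in untreated cells. Raised contact thus extended along chromosome 3 before the corner. Beyond 190 Mb the side with more contact was chromosome 14 below 25 Mb, and the window from 20 to 30 Mb holds both sides. The window from 10 to 20 Mb held 18 contacts in ATRA, 10 in TPA and 21 in untreated cells. That is 3.37 times expected in ATRA, 1.60 times in TPA and 3.73 times in untreated cells. These counts are too low to follow the reach below the corner, so the sides were not compared.

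Distances along the path through a corner were set against contacts within chromosome 3 at the same distance. At paths of 0.5 to 2.5 Mb, chromosome 3 distal of 192 Mb with chromosome 1 above 5 Mb held 41.9% of the contacts found within chromosome 3 in ATRA cells, 49.4% in TPA cells and 44.4% in untreated cells. Chromosome 3 proximal of 192 Mb with chromosome 1 below 5 Mb held 38.1% in ATRA, 40.4% in TPA and 46.1% in untreated cells. For chromosome 14 the distal path held 40.03% in ATRA, 41.2% in TPA and 31.5% in untreated cells, and the proximal path 23.7% in ATRA, 21.6% in TPA and 18.3% in untreated cells. At 0.5 to 2.5 Mb these 4 paths thus held between 18.3% and 49.4% of the contact within chromosome 3, lowest on the proximal side at chromosome 14. The share depended on distance. At paths of 5.5 to 10.5 Mb each was higher in each matrix. They then ran from 31.2% for the proximal path of chromosome 14 to 88.6% for that of chromosome 1, both in untreated cells.

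Contact within chromosome 3 was also counted across each position, between the 5 Mb on either side, over the mean at that distance. Across 192 Mb it was 0.161 in ATRA cells (0.138 to 0.187), 0.170 in TPA cells (0.148 to 0.194) and 0.218 in untreated cells (0.194 to 0.245), the lowest of 356 positions in each matrix, where the median position had 0.956 in ATRA, 0.965 in TPA and 0.955 in untreated cells. Relative to untreated, ATRA stood at 0.740 (0.608 to 0.897) and TPA at 0.779 (0.652 to 0.931). Across 190 Mb it was 0.336 in ATRA cells, 0.353 in TPA cells and 0.311 in untreated cells, ranking 7 from the lowest in ATRA, 7 in TPA and 5 in untreated cells. Across 182 Mb, where the joined end begins by the rule, it was 0.793 in ATRA, 0.800 in TPA and 0.878 in untreated cells, and in unbalanced contacts it lay above 1, at 1.03 in ATRA, 1.05 in TPA and 1.18 in untreated cells. The windows of 190 and 192 Mb overlap, so those values share contacts. Contact across the chromosome was therefore reduced most at the corner with chromosome 1.

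**Figure D5:**
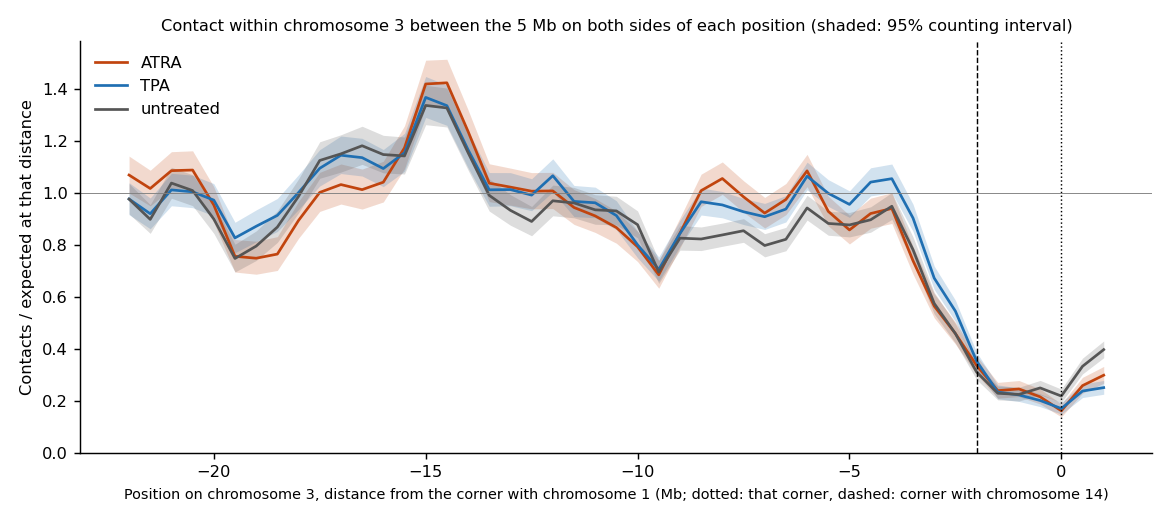
Contact within chromosome 3 across positions near the end of 3q, over the mean at the same distance (y axis), for ATRA, TPA and untreated cells. The x axis is the distance in Mb from the corner with chromosome 1. The lowest point of each line lies at that corner, 192 Mb, with 0.161 in ATRA, 0.170 in TPA and 0.218 in untreated cells.

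The segment from 192 Mb to the end had little contact with the remainder of its own chromosome. Of its contacts, 4.84% went to the rest of chromosome 3 in ATRA cells (4.64 to 5.04%), 4.69% in TPA cells (4.51 to 4.88%) and 4.46% in untreated cells (4.29 to 4.64%). Chromosome 1 took 14.5% in ATRA cells, 15.3% in TPA cells and 15.2% in untreated cells. In each matrix the share with chromosome 1 was thus about 3 times that with the rest of chromosome 3. The segment from 182 to 190 Mb, which is 8 Mb long, sent 15.6% to the rest of chromosome 3 in ATRA, 18.0% in TPA and 17.4% in untreated cells. To chromosome 1 it sent 7.35% in ATRA, 7.65% in TPA and 7.53% in untreated cells. By distance, the end beyond 192 Mb met the stretch from 160 to 180 Mb at 0.178 times the mean at that distance in ATRA cells, 0.173 times in TPA cells and 0.143 times in untreated cells, and the stretch from 0 to 20 Mb at 0.845 times in ATRA, 0.850 times in TPA and 0.825 times in untreated cells.

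Contacts over all 137 joined bin pairs numbered 1293 in ATRA cells, 1717 in TPA cells and 2082 in untreated cells, which is 15.3 times the coverage expectation in ATRA, 16.8 times in TPA and 20.1 times in untreated cells. Relative to untreated, ATRA stood at 0.761 (0.710 to 0.817) and TPA at 0.837 (0.785 to 0.893). The main segment with chromosome 1 gave 0.753 for ATRA (0.692 to 0.818) and 0.814 for TPA (0.753 to 0.879). The segment with chromosome 14 gave 0.700 for ATRA (0.578 to 0.848) and 0.874 for TPA (0.731 to 1.04), and the interval for TPA takes in 1. The larger rectangles around that corner did not all move this way. Chromosome 3 proximal of 190 Mb with chromosome 14 above 25 Mb gave 1.07 for ATRA (0.891 to 1.282) and 1.34 for TPA (1.13 to 1.60), and distal with below 0.859 for ATRA (0.766 to 0.963) and 0.965 for TPA (0.867 to 1.07). Contact within the joined end was lower in the treated matrices as well, and the part from 192 Mb on sent 11.01% of its contacts to itself in ATRA, 11.9% in TPA and 15.5% in untreated cells. Relative to the contacts under 2 Mb within the joined end, the ratio over all joined pairs was 1.03 in ATRA and 1.17 in TPA. It no longer lay below 1 in either treatment, and in ATRA it was near 1. No interval was computed for these values. A change of the joined contacts thus cannot be told apart from the loss of short ones.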

How the data were processed

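Hi-C libraries were made from formaldehyde-fixed HL60 cells cut with HindIII, per the labels' protocols. Bowtie, HiCUP and HOMER 4.7 are the tools, and hg19 the build, per the submitters' processing notes. Filter settings are not stated there. The authors deposited raw contact counts between bins of 500 kb in 3 matrices, without normalization. Counts within a bin were divided by 2, 1 asymmetric cell of the untreated matrix was taken from the upper triangle, and 120 columns, those outside the autosomes and chromosome X, were not used. The median bin held 3272 contacts in ATRA cells, 3466 in TPA cells and 3461 in untreated cells. At this depth single bin pairs carry few contacts, and sums over regions are reported.

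A bin was analysed if its coverage reached 0.2 times the median in all 3 matrices, as 5630 bins did, 390 of them on chromosome 3. Matrices were balanced in 60 iterations. Trans scores left out joined bin pairs and limited single ratios to 5. The start of the joined end, 182 Mb, was found by going back from the last joined bin while joined bins lay within 2 Mb. Expectations from coverage include the joined contacts themselves. Intervals are exact Poisson for contacts over expectation, exact conditional binomial for ratios between matrices, exact binomial for shares and normal for differences of shares, all at 95%. PCR duplicates are not covered by them. No p-value was computed, because each condition is 1 matrix.

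The members and lists were chosen with earlier results of these data known. Named regions are the 5 largest rises and falls among switching bins of a treatment, runs of 2 or more such bins, joined segments of 5 or more bin pairs and the 5 others with most contacts, and all coverage segments. Listed genes were to be placed in these regions with an annotation of hg19, which was not used here. The scripts were tested on simulated data. They ran on Python 3.11.15 with numpy 2.4.6, scipy 1.17.1, pandas 2.3.3 and matplotlib 3.10.9.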

Additional observations from a re-analysis of the deposited data

How the results depend on the processing

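Of 108 results under an alternative, 8 turned, 52 moved and 48 stayed within the limits set here, namely 0.05 for a correlation, 5 percent for a coverage ratio, a factor of 1.5 for a count and the counting interval for other values, and the cause was not tested for those that changed except where the alternative uses fewer bins or contacts by construction. Without balancing, the correlation with untreated was 0.812 in ATRA and 0.599 in TPA, switches were 7 to B and 3 to A in ATRA and 13 to B and 20 to A in TPA, and cis with trans correlated at 0.146 in ATRA cells, 0.149 in TPA cells and 0.416 in untreated cells. By the trans score TPA correlated with untreated at 0.844, and switches were 0 to B in ATRA and 2 to B and 1 to A in TPA. With an eigenvector per arm, switches were 4 to B and 2 to A in ATRA and 18 to B and 7 to A in TPA, and cis with trans correlated at 0.619 in ATRA cells and 0.614 in untreated cells. With the joined end left out, 1 bin switched to B in ATRA. Cis with trans then correlated at 0.784 in ATRA cells, 0.903 in TPA cells and 0.774 in untreated cells. Of contacts between different bins, those under 2 Mb then made up 24.97% in ATRA, 24.1% in TPA and 32.9% in untreated cells. A coverage minimum of 0.5 left 1 switch to B in ATRA. At 0.3 SD, switches were 10 to B and 2 to A in ATRA and 28 to B and 5 to A in TPA. With scores not centred, an alternative chosen after seeing the data, 26 bins switched to B and 1 to A in TPA. Gene-rich contact in place of the trans score correlated with the cis score at 0.440 in ATRA cells, 0.597 in TPA cells and 0.529 in untreated cells. Over all analysed bins the joined end was covered 1.11 times as highly in ATRA, 1.11 times in TPA and 1.17 times in untreated cells. Joined segments numbered 79 and bin pairs 275 at 10 contacts or more, bin pairs numbered 208 at 5 times expected, and merging pairs within 2 Mb, also chosen after seeing the data, gave 8 segments. Per total contacts, the ATRA ratio of joined contacts was 0.685 over all pairs and 0.679 in the main segment with chromosome 1. Per contacts within 2 Mb in the joined end, the ratios in ATRA and TPA were 1.03 and 1.17 over all pairs, 1.02 and 1.15 with chromosome 1, and 1.12 and 1.26 with chromosome 14. In raw contacts, contact across 182 Mb was 1.03 in ATRA cells, 1.05 in TPA cells and 1.18 in untreated cells, across 190 Mb 0.502 in ATRA, 0.510 in TPA and 0.432 in untreated cells, and across 192 Mb 0.241 in ATRA, 0.245 in TPA and 0.308 in untreated cells. Without contacts inside a bin, the share within the chromosome was 15.8% in ATRA, 19.1% in TPA and 20.1% in untreated cells. Placing bin pairs with chromosomes 1 and 14 at their expectation in the trans score, added after seeing the data, changed no correlation by more than 0.05. No paired analysis was possible because the libraries of a condition were merged into 1 matrix, and leaving out a library was not run for the same reason. Depth limits single bins and small segments, where counts are low.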
